A study of Mus musculus with 12 samples.

Results

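The antioxidant defence and NRF2 genes described here are 10 genes of mouse liver, chosen by symbol from the 22456 genes of the expression table and followed across 12 liver libraries. They are Nfe2l2 and Keap1, which set the level of the response, Gclc and Gclm for glutathione synthesis, Txnrd1 and Srxn1 for thiol reduction, Hmox1 for haem breakdown, Osgin1, a stress-induced gene, and Cat and Gpx1, which remove peroxides. All 10 passed the filter on low values (a mean RPKM of at least 0.5, where RPKM is a read count scaled to the length of the transcript and to the depth of the library). The mice were males on the BALB/cByJ background, with ages that spanned several months and no age given per library. Lpin1-/- mice carry the germline fatty liver dystrophy mutation of Lpin1 in every tissue, and Lpin1+/+ mice were their littermates. Every mouse was fasted alone in its cage for 16 hours. Livers of fasted mice were collected then, and those of refed mice after 5 more hours with chow, so that a feeding effect and an effect of the hour of collection cannot be told apart. Both genotypes were studied in both feeding states, which makes 4 groups of 3 libraries, numbered in each group as replicates 1 to 3. Whether feeding state changes the genes that depend on lipin 1, the phosphatidic acid phosphatase and transcriptional coactivator encoded by Lpin1, was the question of these comparisons.

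NRF2, the protein of Nfe2l2, is a transcription factor that is held at a low level in unstressed cells by KEAP1, a sensor protein that hands it to the proteasome. Oxidants and electrophiles modify KEAP1, NRF2 accumulates, and with a small MAF partner it binds antioxidant response elements near genes for glutathione synthesis, thiol reduction and detoxification. Liver is rich in these enzymes and in catalase and glutathione peroxidase 1, which clear the hydrogen peroxide made in peroxisomes, mitochondria and the endoplasmic reticulum.

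A pair of sequences carries the result that stood out among these genes, which is the choice of the exon joined to exon 1 of Nfe2l2. Nfe2l2 lies on the minus strand of GRCm38 at chr2:75675513-75704641. In the GENCODE M21 annotation its coding transcript joins exon 1 to a coding exon 2 at chr2:75679163-75679429, and its other transcript, a processed transcript, has no annotated coding sequence and joins exon 1 to an alternative last exon at chr2:75691052-75692372. The last 40 bases of exon 1, which are coding in the first of these, are shown in lower case, and the first 60 bases of the exon joined to them in capitals, 5′ to 3′.
Coding transcript of Nfe2l2, exon 1 to exon 2: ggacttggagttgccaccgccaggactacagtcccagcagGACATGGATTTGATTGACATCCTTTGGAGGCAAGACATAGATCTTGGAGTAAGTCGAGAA
Processed transcript of Nfe2l2, exon 1 to alternative last exon: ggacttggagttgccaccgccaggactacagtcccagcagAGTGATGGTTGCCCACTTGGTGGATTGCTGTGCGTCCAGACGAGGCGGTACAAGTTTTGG
Read from the annotated start codon, which leaves 15 codons in exon 1, the second sequence meets a stop codon after 45 codons, 90 bases into the alternative last exon of 1321 bases. The coding sequence of the coding transcript has 1791 bases.

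The libraries were checked for the knockout and for other cell types. Lpin1 was at 0.726 to 22.0 RPKM in fasted Lpin1+/+ and 0.784 to 2.92 RPKM in refed Lpin1+/+ liver, and at no more than 0.0597 RPKM in any Lpin1-/- library. Hepatocyte markers (Alb, Ttr, Apoa1, Tat, Cyp2e1 and Hnf4a) summed to between 33143 and 78390 RPKM in all libraries, and 0 of these 6 genes were called in any contrast. Cyp2e1 alone of them did not overlap between the fasted genotypes, at 6054 to 7925 RPKM in Lpin1+/+ and 1310 to 5144 RPKM in Lpin1-/- liver. In refed liver Alb and Tat were higher in Lpin1-/- mice without overlap. Refed Lpin1+/+ replicate 2 stood apart from its group, with 8 Kupffer cell and macrophage markers summing to 329 RPKM against 70.2 and 42.8 RPKM in its 2 partners. Fasted Lpin1-/- replicate 1 held the highest sums of cholangiocyte markers (451 RPKM) and red blood cell markers (1881 RPKM) of the 12 libraries. Neutrophil markers ranged from 55.4 to 177 RPKM in fasted Lpin1-/- and from 8.80 to 147 RPKM in fasted Lpin1+/+ liver. Stellate cell markers summed to 210.4 to 300.2 RPKM in fasted Lpin1-/- and 73.5 to 170.3 RPKM in fasted Lpin1+/+ liver, without overlap, and 0 of these 5 genes were called there. Sinusoidal endothelial markers summed to 37.8 to 50.7 RPKM in fasted Lpin1-/- and 18.6 to 44.0 RPKM in fasted Lpin1+/+ liver, and 1 of the 5, Lyve1, was called higher (1.77, SE 0.46, adjusted p = 0.0208), at 4.19 to 7.87 against 0.153 to 2.67 RPKM. The part of such cells in the differences given next was not tested. In whole liver, fewer cells of a type and less RNA per cell cannot be told apart. Values that refed Lpin1+/+ replicate 2 moved most are given below also without it.

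Levels per length spanned a wide range among the 10 genes. Over the 12 libraries the mean RPKM was 3575 ± 2020 (SD, n = 12) for Gpx1, 665 ± 416 for Cat and 105 ± 34.0 for Gclm. Osgin1 followed with 72.0 ± 38.5 RPKM, Gclc with 51.1 ± 25.7 and Txnrd1 with 48.1 ± 21.7. Hmox1 was at 37.4 ± 27.3 RPKM, Srxn1 at 29.8 ± 13.7, Nfe2l2 at 22.6 ± 14.8 and Keap1 at 18.04 ± 6.52. Gpx1 thus ranked 28 and Keap1 3457 among the 22456 genes by mean RPKM. Every Cat library (lowest 244 RPKM) lay above every Gclm library (highest 153 RPKM). Each other pair of neighbours in this order overlapped across the libraries.

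**Figure D1:**
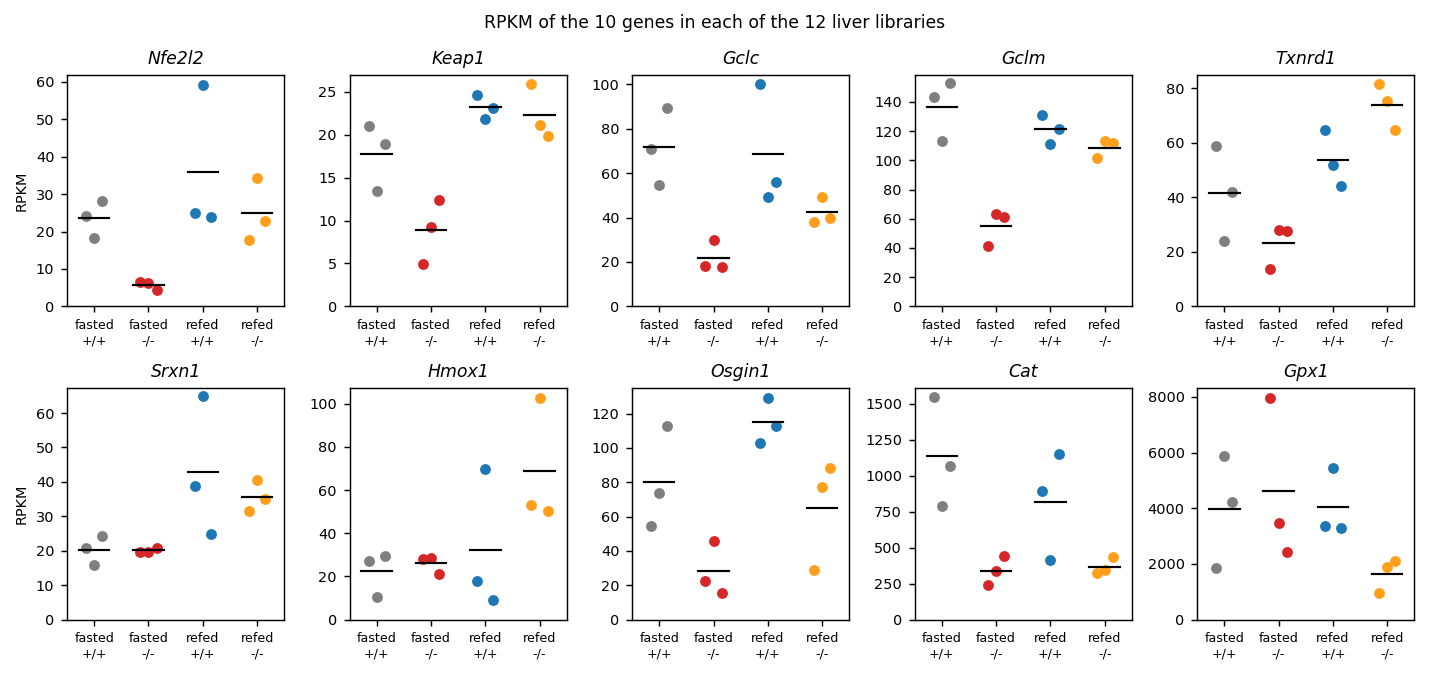
RPKM of each of the 10 genes (y axis, from 0) in the 3 libraries of each of the 4 groups (x axis). Points are libraries, drawn from left to right as replicates 1 to 3, and lines are group means. Nfe2l2, Keap1, Gclc, Gclm, Osgin1 and Cat were lower in every fasted Lpin1-/- library than in any fasted Lpin1+/+ library.

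In fasted liver, 6 of the 10 genes were lower in Lpin1-/- than in Lpin1+/+ mice and 0 were higher. They were both regulators, Nfe2l2 and Keap1, both subunits of the enzyme for glutathione synthesis, Gclc and Gclm, and Osgin1 and Cat. Among all 11507 genes tested, 18.8% differed in this contrast, 13.2% lower and 5.63% higher. The 10 genes were chosen with earlier results of these data known, so the 2 shares are a description and not an independent test. The 10 genes had a median log2 fold change of −1.14, and all genes tested had a median of −0.14. Differences were tested with limma on log2(RPKM + 1) and adjusted by Benjamini-Hochberg over all genes, so a fold change is on that scale, with its SE. For these 6 genes the 2 groups did not overlap, where 32.9% of all genes did not overlap and 22.2% did so in the lower direction.

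Nfe2l2 was at 24.2, 18.2 and 28.1 RPKM in the fasted Lpin1+/+ libraries and at 6.50, 6.21 and 4.38 RPKM in the fasted Lpin1-/- libraries. The groups were apart by a wide gap, with a log2 fold change of −1.87 (SE 0.35, adjusted p = 0.00432), or 3.64-fold lower. Keap1, which encodes the sensor and adaptor that targets NRF2 for breakdown, was at 21.0, 13.4 and 18.9 RPKM and at 4.98, 9.28 and 12.4 RPKM in the same groups. Its lowest Lpin1+/+ library lay just above its highest Lpin1-/- library, and its log2 fold change was −0.98 (SE 0.27, adjusted p = 0.0285). The Keap1 call was not kept without fasted Lpin1+/+ replicate 1 (−0.85, adjusted p = 0.0781) or 3 (−0.93, adjusted p = 0.0990), or without fasted Lpin1-/- replicate 1 (−0.65, adjusted p = 0.0798) or 2 (−1.04, adjusted p = 0.0557). It was also lost when only the 6 fasted libraries were fitted (adjusted p = 0.112).

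Gclc and Gclm encode the catalytic and the modifier subunit of glutamate-cysteine ligase, the first and rate-limiting enzyme of glutathione synthesis. Gclc was at 70.8, 54.7 and 89.4 RPKM in fasted Lpin1+/+ and at 18.2, 29.8 and 17.5 RPKM in fasted Lpin1-/- liver, a log2 fold change of −1.68 (SE 0.30, adjusted p = 0.00333). Gclm was at 143, 113 and 153 RPKM against 41.2, 63.3 and 61.4 RPKM, a log2 fold change of −1.30 (SE 0.20, adjusted p = 0.00155). Both subunits were therefore lower in every Lpin1-/- library. Cat, the peroxisomal catalase, was at 1544, 792 and 1065 RPKM against 244, 336 and 443 RPKM, a log2 fold change of −1.72 (SE 0.38, adjusted p = 0.0108). The lowest Lpin1+/+ library for Cat held more than the highest Lpin1-/- library.

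Osgin1, an NRF2 target that limits cell growth under oxidative stress, was at 54.8, 73.5 and 112.5 RPKM in fasted Lpin1+/+ and at 22.8, 45.8 and 15.7 RPKM in fasted Lpin1-/- liver. Both groups were wide and did not overlap (log2 fold change −1.56, SE 0.45, adjusted p = 0.0336). The Osgin1 call was not kept without fasted Lpin1+/+ replicate 2 (−1.59, adjusted p = 0.0572) or 3 (−1.28, adjusted p = 0.133), without fasted Lpin1-/- replicate 1 (−1.48, adjusted p = 0.0924) or 3 (−1.22, adjusted p = 0.108), or when the libraries were rescaled to a common median ratio (−1.36, adjusted p = 0.0683). It was also lost with only the 6 fasted libraries (adjusted p = 0.0538) and without the filter on low values (adjusted p = 0.0666).

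The other 4 genes did not pass the threshold in fasted liver. Txnrd1, the cytosolic thioredoxin reductase, was at 59.0, 24.1 and 42.1 RPKM against 13.7, 27.9 and 27.8 RPKM, and the groups overlapped (log2 fold change −0.80, SE 0.33, adjusted p = 0.117). Without fasted Lpin1+/+ replicate 2, the lowest of its group, Txnrd1 passed the threshold (−1.14, adjusted p = 0.0287). Srxn1, which reduces overoxidised peroxiredoxins, ranged from 15.8 to 24.4 RPKM in fasted Lpin1+/+ and from 19.6 to 20.9 RPKM in fasted Lpin1-/- liver. Its difference was 0.01 on the log2 scale, with a 95% interval from −0.62 to 0.64. Hmox1, the inducible haem oxygenase, ranged from 10.6 to 29.7 and from 21.3 to 28.6 RPKM (log2 fold change 0.31, interval −1.01 to 1.64). Gpx1, the abundant selenium-dependent glutathione peroxidase, was at 1865, 5890 and 4219 RPKM against 7975, 3468 and 2415 RPKM, so that either group spread more than 3-fold (log2 fold change 0.18, interval −0.999 to 1.35). The highest Gpx1 value was that of fasted Lpin1-/- replicate 1, the library with the highest cholangiocyte and red blood cell marker sums, and their part in it was not tested.

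In Lpin1-/- liver, 5 of the 10 genes were higher after refeeding and 0 were lower, where 20.7% of all genes tested differed and 17.8% were higher. The 5 genes were Nfe2l2, Keap1, Gclc, Gclm and Txnrd1. This contrast shares the fasted Lpin1-/- libraries with the contrast above. Macrophage marker sums were 119 to 260 RPKM in fasted and 37.5 to 90.9 RPKM in refed Lpin1-/- liver, without overlap, with 1 of 8 markers called lower (Clec4f), and stellate marker sums were 210.4 to 300.2 and 168 to 209.8 RPKM. Their part in these differences was not tested. The median log2 fold change was 1.08 for the 10 genes and 0.25 for all genes tested. Nfe2l2 rose to 17.8, 34.3 and 22.8 RPKM, a log2 fold change of 1.92 (SE 0.35, adjusted p = 0.00404), and ranked 11418 from the lowest of 11507 fold changes. Keap1 rose to 26.0, 21.1 and 19.9 RPKM (1.30, SE 0.27, adjusted p = 0.00791). Neither regulator overlapped its fasted values.

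Txnrd1 rose to 81.7, 75.3 and 64.8 RPKM, a log2 fold change of 1.70 (SE 0.33, adjusted p = 0.00595), and its 3 libraries were the highest of the 12, although the lowest of them lay just above a refed Lpin1+/+ library at 64.7 RPKM. Gclm reached 101.3, 113 and 112 RPKM (0.99, SE 0.20, adjusted p = 0.00626), and Gclc 38.1, 49.3 and 39.96 RPKM (0.96, SE 0.30, adjusted p = 0.0407). The Gclc value was the least firm of the 5. It did not pass without fasted Lpin1-/- replicate 1 (0.85, adjusted p = 0.130) or 3 (0.83, adjusted p = 0.105), without refed Lpin1-/- replicate 1 (1.03, adjusted p = 0.0704), 2 (0.85, adjusted p = 0.134) or 3 (1.00, adjusted p = 0.0852), or without refed Lpin1+/+ replicate 3 (0.96, adjusted p = 0.0509). Rescaling the libraries lowered it to 0.60 (adjusted p = 0.150), without the filter its adjusted p was 0.0656, and with the replicate number as a block its adjusted p was 0.0701.

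Of the remaining 5 genes in refed against fasted Lpin1-/- liver, Srxn1 had a log2 fold change of 0.79 (SE 0.29, adjusted p = 0.0718) and Osgin1 of 1.16 (SE 0.45, adjusted p = 0.0878). Srxn1 was at 31.4, 40.6 and 35.2 RPKM after refeeding, above every fasted Lpin1-/- library, and passed the threshold without refed Lpin1+/+ replicate 2 (adjusted p = 0.0256) or 3 (adjusted p = 0.0357). Osgin1 was at 28.8, 77.3 and 88.3 RPKM, and passed without fasted Lpin1-/- replicate 2 (1.57, adjusted p = 0.0420) or refed Lpin1-/- replicate 1 (1.66, adjusted p = 0.0226). Hmox1 was at 52.9, 102.6 and 50.5 RPKM after refeeding, above its fasted Lpin1-/- values of 28.2, 28.6 and 21.3 RPKM (1.30, SE 0.60, adjusted p = 0.145). It passed without refed Lpin1+/+ replicate 2 (adjusted p = 0.0426), and Srxn1 and Hmox1 both passed with only the 6 Lpin1-/- libraries (adjusted p = 0.0216 and 0.0230). Cat was at 327, 346 and 433 RPKM, overlapping its fasted Lpin1-/- values (0.14, interval −0.70 to 0.98). Gpx1 was at 953, 1901 and 2104 RPKM, below each fasted Lpin1-/- library (−1.38, SE 0.54, adjusted p = 0.0894). Altogether 8 of the 10 genes did not overlap between the states in Lpin1-/- liver, 7 of them higher after refeeding, and of all genes tested 46.8% did not overlap, 37.5% higher and 9.26% lower.

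In Lpin1+/+ liver, 0 of the 10 genes passed the threshold after refeeding by limma, 1 had an unadjusted p under 0.05, and 1.72% of all genes tested were called. That gene was Srxn1, at 38.8, 64.9 and 25.0 RPKM after refeeding and 20.7, 15.8 and 24.4 RPKM after fasting (log2 fold change 0.96, SE 0.29, adjusted p = 0.145). Its groups were apart only by a narrow margin, and without refed Lpin1+/+ replicate 2 its value was 0.62 (adjusted p = 0.337). Keap1, at 24.6, 21.9 and 23.1 RPKM after refeeding, was the other gene that did not overlap its fasted values (0.39, SE 0.27, adjusted p = 0.572), and of all genes 18.1% did not overlap, 14.6% higher and 3.46% lower. Nfe2l2 was at 25.1, 59.2 and 23.9 RPKM after refeeding, and 1 library was far above the other 2. The Nfe2l2 log2 fold change of 0.49 (SE 0.35) came to 0.08 without that library, refed Lpin1+/+ replicate 2.

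The other members in Lpin1+/+ liver had fold changes within a wide error. Txnrd1 was at 44.2 to 64.7 RPKM after refeeding (0.42, SE 0.33) and Osgin1 at 103 to 129 RPKM (0.57, SE 0.45). Gclc ranged from 49.2 to 100.3 RPKM (−0.11, SE 0.30), Gclm from 111 to 131 RPKM (−0.16, SE 0.20) and Cat from 413 to 1150 RPKM (−0.54, SE 0.38). Gpx1 was at 3368, 5448 and 3290.0 RPKM (0.13, SE 0.54). Hmox1 was at 18.1, 69.7 and 9.18 RPKM (0.15, SE 0.60). Without refed Lpin1+/+ replicate 2 the values were −0.63 for Hmox1, −0.11 for Cat, −0.11 for Gpx1 and 0.0921 for Gclc. In each of these 7 genes the refed values overlapped the fasted ones.

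The difference between the refeeding responses of the 2 genotypes was tested as an interaction. By limma 0 of the 10 genes passed, with 1.28% of all genes called, and 5 had an unadjusted p under 0.05. These 5 were Nfe2l2, Keap1, Gclc, Gclm and Txnrd1, each with the larger response in Lpin1-/- liver. The response of Gclm was larger by 1.15 on the log2 scale (SE 0.28, adjusted p = 0.0668), and that of Nfe2l2 by 1.43 (SE 0.49, adjusted p = 0.163), or 1.84 without refed Lpin1+/+ replicate 2 (adjusted p = 0.0715). A different response of the genotypes to refeeding was thus not shown for any member.

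**Figure D2:**
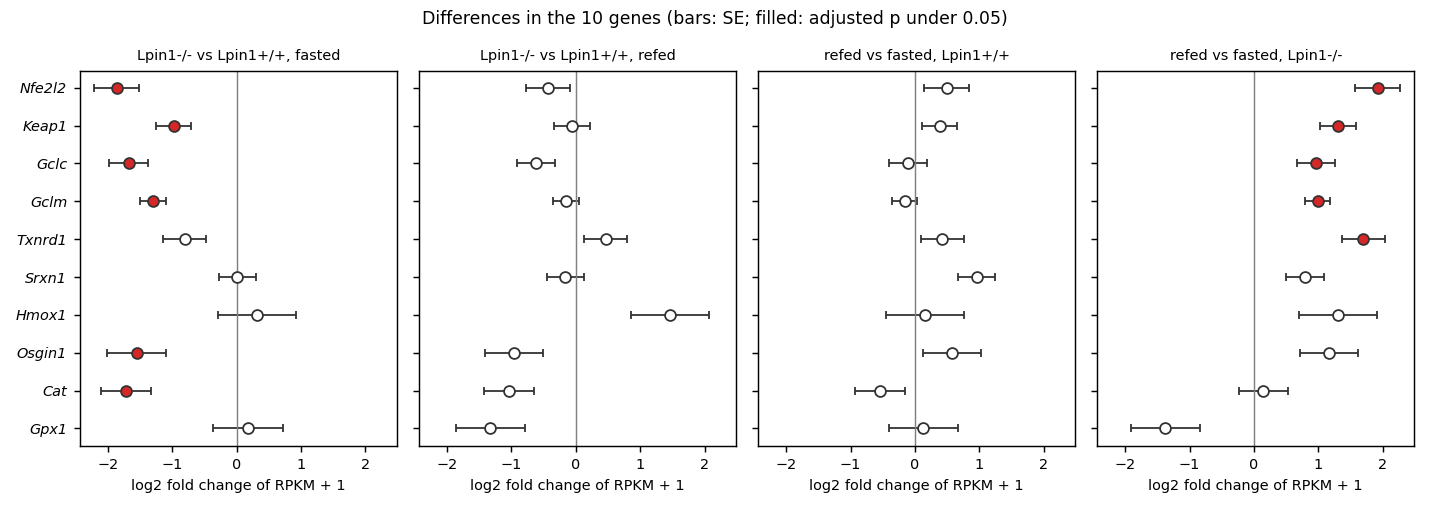
Log2 fold change of RPKM + 1 (x axis) of each gene (y axis) in the 2 genotype and 2 feeding contrasts, with bars for the SE. Filled points passed an adjusted p of 0.05: 6 genes were lower in fasted Lpin1-/- liver, 5 were higher in refed than fasted Lpin1-/- liver, and 0 passed in either of the other contrasts.

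In refed liver, 0 of the 10 genes differed between the genotypes by limma, where 6.67% of all genes did (2.6% higher and 4.07% lower), and 3 had an unadjusted p under 0.05. Those were Cat, Gpx1 and Hmox1. Cat was at 892, 413 and 1150 RPKM in refed Lpin1+/+ and at 327, 346 and 433 RPKM in refed Lpin1-/- liver (log2 fold change −1.04, SE 0.38, adjusted p = 0.133). The overlap came from refed Lpin1+/+ replicate 2, the library with 413 RPKM, and without it Cat was lower by −1.47 (adjusted p = 0.0352). Gpx1 was below every Lpin1+/+ library in all 3 refed Lpin1-/- libraries (−1.33, SE 0.54, adjusted p = 0.168). Osgin1 (−0.96, SE 0.45, adjusted p = 0.234) and Txnrd1 (0.47, SE 0.33, adjusted p = 0.441) were the other genes without overlap, and of all genes 33.9% did not overlap, 19.1% lower and 14.8% higher. Nfe2l2 (−0.44, interval −1.19 to 0.32), Keap1 (−0.06, interval −0.66 to 0.54), Gclm (−0.15, interval −0.58 to 0.28), Gclc (−0.62, interval −1.26 to 0.03) and Srxn1 (−0.16, interval −0.79 to 0.47) overlapped between the genotypes. Without refed Lpin1+/+ replicate 2 the values were −0.02 for Nfe2l2 and 0.18 for Srxn1.

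Hmox1 was at 18.1, 69.7 and 9.18 RPKM in refed Lpin1+/+ and at 52.9, 102.6 and 50.5 RPKM in refed Lpin1-/- liver (log2 fold change 1.46, SE 0.60, adjusted p = 0.179). Without refed Lpin1+/+ replicate 2 the difference was 2.24 (adjusted p = 0.0226), and Hmox1 and Cat were then the 2 members called. Hmox1 is also expressed by Kupffer cells, which take up aged red cells. The 8 macrophage markers were detected in all groups and summed to 70.2, 329 and 42.8 RPKM in the refed Lpin1+/+ libraries, in the order of the Hmox1 values above, and to 37.5, 90.9 and 55.1 RPKM in the refed Lpin1-/- libraries. The highest Hmox1 value of each refed group was in the library with the highest macrophage sum of that group. Fasted libraries had sums of 71.7 to 260 RPKM with Hmox1 at 10.6 to 29.7 RPKM. The part of these cells in the Hmox1 values was not tested.

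**Figure D3:**
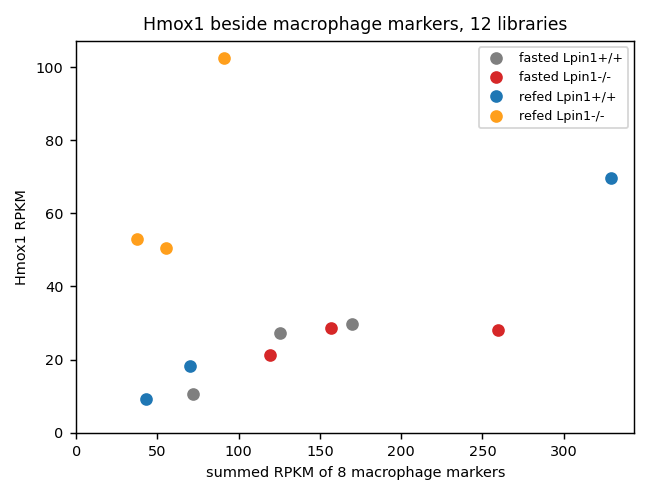
Hmox1 RPKM (y axis) against the summed RPKM of 8 Kupffer cell and macrophage markers (x axis) in the 12 libraries, coloured by group. Refed Lpin1+/+ replicate 2 stands at 329 and 69.7 RPKM, and the 3 refed Lpin1-/- libraries lie at 50.5 to 102.6 RPKM of Hmox1 with marker sums of 37.5 to 90.9 RPKM.

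Nfe2l2 has 2 annotated transcripts, and the annotation that lists them is not the one used for RPKM. Whether its gene-level value pools both was not tested. The deposited splicing counts covered both exon 1 junctions in each library. The authors ran rMATS and deposited the skipping counts of skipped exon events, and these are the reads over a junction. Libraries of a group are listed there without replicate numbers, so they are given by their position in the list. This comparison was chosen after the counts had been seen. Reads from exon 1 to exon 2, the junction of the coding transcript, numbered 242, 113 and 225 in fasted Lpin1+/+ and 31, 22 and 46 in fasted Lpin1-/- liver. Reads from exon 1 to the alternative last exon numbered 59, 80 and 50 in fasted Lpin1+/+ and 501, 532 and 318 in fasted Lpin1-/- liver. The order of the junctions was thus opposite in the 2 genotypes, and in neither junction did the groups overlap.

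The alternative last exon took 19.6%, 41.5% and 18.2% of these reads in fasted Lpin1+/+ and 94.2%, 96.0% and 87.4% in fasted Lpin1-/- liver. Group means were 26.4% ± 13.0 and 92.5% ± 4.56 (SD, n = 3). The exact 95% binomial intervals of single libraries, which cover counting error only, reached at most 48.7% in the first group and began at 83.5% or above in the second. Over 6408 pairs of junctions that share an end, fitted together with limma on the log2 ratio of their counts, the Nfe2l2 ratio of alternative last exon to exon 2 was higher in fasted Lpin1-/- liver by 5.34 (SE 0.60, adjusted p = 0.000448), the 6th smallest p, where 8.46% of pairs were called. It remained called with each library left out in turn, with values from 4.94 to 5.87.

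After refeeding, the Lpin1-/- libraries held 216, 392 and 217 reads to exon 2 and 243, 186 and 148 reads to the alternative last exon. The refed Lpin1+/+ libraries held 228, 578 and 239 reads to exon 2 and 27, 82 and 46 reads to the alternative last exon. The share of the alternative last exon was 52.9%, 32.2% and 40.5% in refed Lpin1-/- and 10.6%, 12.4% and 16.1% in refed Lpin1+/+ liver, without overlap. Between the genotypes the log2 ratio differed by 2.26 in refed liver (SE 0.60, adjusted p = 0.0921), which did not pass, where 0.983% of pairs did. From fasted to refed Lpin1-/- liver the ratio fell by 4.26 (SE 0.60, adjusted p = 0.00555), where 2.9% of pairs were called. In Lpin1+/+ liver the difference was −1.18 (SE 0.60, adjusted p = 0.988), where 0% of pairs were called. The interaction did not pass (−3.08, SE 0.85, adjusted p = 0.250), where 0.0624% of pairs did.

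Per 1000000 skipping counts of a library, reads to exon 2 were 5.80-fold fewer in fasted Lpin1-/- than in fasted Lpin1+/+ liver (means 2.45 and 14.2), and reads to the alternative last exon were 7.32-fold more (means 34.0 and 4.64). Both junctions together came to 42.1, 41.3 and 25.9 on this scale in fasted Lpin1-/- and 21.4, 14.3 and 20.9 in fasted Lpin1+/+ liver. Junction reads that leave exon 1 were therefore more numerous in the 3 fasted Lpin1-/- libraries, in which Nfe2l2 RPKM was lower. In refed liver, reads to exon 2 had means of 18.6 in Lpin1-/- and 28.2 in Lpin1+/+ liver, and the groups overlapped. Reads over exon 4 of the coding transcript (chr2:75677545-75677712) numbered 1146, 518 and 852 in fasted Lpin1+/+ and 82, 75 and 58 in fasted Lpin1-/- liver. Such reads numbered 853, 2268 and 1002 in refed Lpin1+/+ and 803, 1613 and 980 in refed Lpin1-/- liver. Both this coding exon and the exon 2 junction thus had their lowest counts in fasted Lpin1-/- liver. Within that group the order of the libraries differed between the 2. How far each transcript contributes to the RPKM of Nfe2l2 was not tested.

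**Figure D4:**
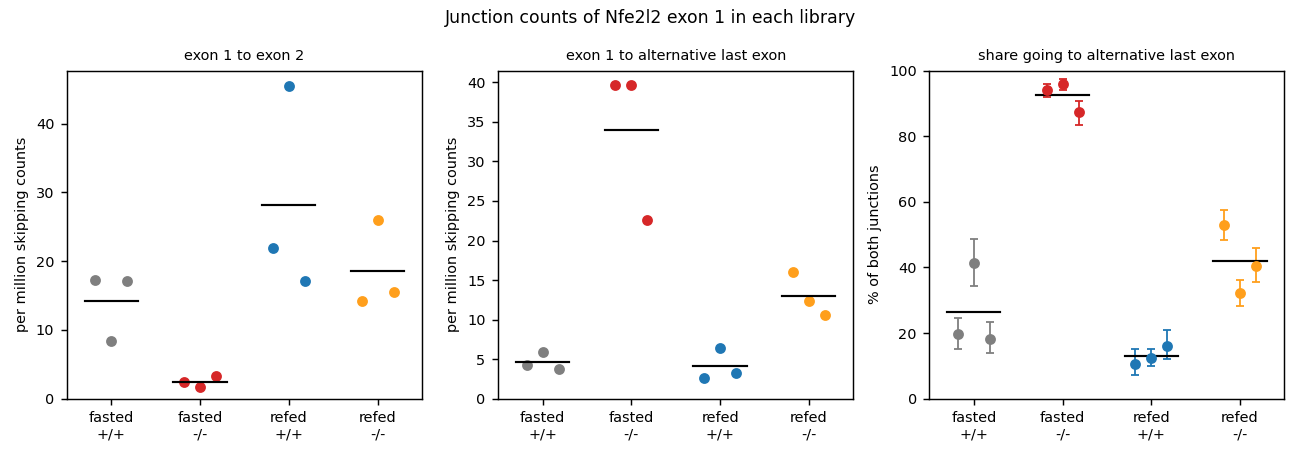
Reads from Nfe2l2 exon 1 to exon 2 (left) and to the alternative last exon (middle), per 1000000 skipping counts of each library, and the share of the alternative last exon among both (right, %, with exact 95% binomial intervals), by group. Points are libraries by list position and lines are group means. The share was 87.4% to 96.0% in fasted Lpin1-/- and 18.2% to 41.5% in fasted Lpin1+/+ liver.

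Of the 12 junction pairs tested in the members, 2 were called in fasted liver (Nfe2l2 and 1 of Gclm), 1 in refed liver (Txnrd1) and 1 in Lpin1-/- refeeding (Nfe2l2), where 8.46%, 0.983% and 2.9% of all pairs were called. The Gclm pair rested on a junction with at most 5 reads in any library, and the Txnrd1 pair on 1 with at most 5 reads. Reads from the exon that ends at chr10:82860630 of Txnrd1 to the shared next exon numbered 349, 110 and 211 in fasted Lpin1+/+ and 41, 109 and 106 in fasted Lpin1-/- liver. Those that skip this exon, from the exon before it that ends at 82859300, numbered 66, 19 and 28 and 19, 29 and 26. The ratio of these 2 junctions did not pass in any contrast, and in refed against fasted Lpin1-/- liver it was higher by 1.52 (SE 0.46, adjusted p = 0.103). The 2 splice donors of Srxn1 likewise did not differ past the threshold (largest log2 difference 0.68, SE 0.71).

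For each skipped exon event the log2 of inclusion over skipping counts, each divided by the length of its form, was tested. In fasted liver 11 of 87 tested events of the members were called (12.6%), where 11.3% of all events were called, 7.81% with lower and 3.52% with higher inclusion in Lpin1-/- liver. In refed liver 0 of 84 were called by limma, against 0.97% of all events (0.819% lower and 0.152% higher), with 14 at an unadjusted p under 0.05. Gpx1 had no listed event, and Hmox1 had 1, in the refed table. The called events were 5 in Gclm, 3 in Osgin1, 2 in Cat and 1 in Nfe2l2, and several overlap each other. In most of them the rarer form stayed a small share of the reads. The exception in size was a Cat event at chr2:103470863-103471017 with few reads in all, included in 100% of Lpin1+/+ and 69.9% of Lpin1-/- reads on average. The other called Cat event was of the same exon beside another neighbour, which ends at chr2:103470424, and had far more reads. It went the opposite way, with a mean inclusion of 0.0638% in Lpin1+/+ and 0.696% in Lpin1-/- liver (adjusted p = 0.0125). The Nfe2l2 event was exon 4, skipped in 0, 0 and 0 reads of fasted Lpin1+/+ and 2, 1 and 0 reads of fasted Lpin1-/- liver. Where skipping counts are 0, fewer inclusion counts alone lower the ratio. All genes with called events were lower in RPKM in fasted Lpin1-/- liver, and the part of this in the calls was not tested.

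Osgin1 gave the smallest p among the member events. Its exon part at chr8:119442499-119442569 was skipped in 0, 0 and 0 reads of fasted Lpin1+/+ and in 12, 11 and 3 reads of fasted Lpin1-/- liver, beside 531, 460 and 782 and 110, 302 and 122 inclusion counts (adjusted p = 0.000959). An exon inside a Gclm intron, at chr3:122261668-122261796, was included by 10, 16 and 12 counts in fasted Lpin1+/+ and by 17, 26 and 34 counts in fasted Lpin1-/- liver, with 968, 636 and 1055 and 204, 383 and 398 skipping reads. On average its inclusion was 0.536% and 2.65% (adjusted p = 0.0429). Another exon of Osgin1, at chr8:119444420-119444479, was included at 0.0576% and 2.34% (adjusted p = 0.0307). For Txnrd1 the event with most reads in its rarer form, the exon at chr10:82872938-82873012, was included at 8.61% in fasted Lpin1+/+ and 11.8% in fasted Lpin1-/- liver on average. Single fasted Lpin1-/- libraries were at 1.15%, 13.9% and 20.4%, and the fitted log2 ratio was −0.08 (SE 0.92, adjusted p = 0.964), so no direction is shown. In Gclc, Osgin1, Keap1, Srxn1 and Nfe2l2 the corresponding event was not called, with adjusted p values of 0.709, 0.466, 0.750, 0.337 and 0.173.

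Promoter sequence of 8 of the 10 genes was at hand from RefSeq (GRCm38.p6, from 250 bases before to 50 bases after each start). It was searched on both strands for the core antioxidant response element TGACNNNGC and for the variant TGAGNNNGC, and the 2 differ at the 4th base, so that 1 stretch read in 1 direction cannot match both, although matches on opposite strands may overlap. The first is held by 12.39% of 32851 promoters and the second by 17.65%. A match to either was found in 5 members, namely Nfe2l2, Gclm, Txnrd1, Srxn1 and Osgin1. Txnrd1 had 3 promoters in the search and each other searched member 1, and Gclc and Hmox1 had 0. The share of all promoters with either match was not counted, so the 5 members have no like background. A match is a description of the sequence and not a bound site. A stretch is shown for each of these genes, with the match in capitals, 5′ to 3′ along the gene, and a match on the opposite strand reads as its reverse complement.
Nfe2l2, chr2:75704879-75704913, minus strand, TGACNNNGC 240 bases before the start: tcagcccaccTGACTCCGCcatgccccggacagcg
Gclm, chr3:122245407-122245447, plus strand, opposite-strand TGACNNNGC 134 bases before the start: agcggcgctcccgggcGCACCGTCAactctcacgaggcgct
Txnrd1, chr10:82859098-82859138, plus strand, opposite-strand TGACNNNGC 92 bases before its second start: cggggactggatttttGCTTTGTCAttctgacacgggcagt
Osgin1, chr8:119437032-119437072, plus strand, opposite-strand TGAGNNNGC 99 bases before the start: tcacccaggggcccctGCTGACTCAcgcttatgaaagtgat
Srxn1, chr2:152105463-152105503, plus strand, TGAGNNNGC 45 bases before the start: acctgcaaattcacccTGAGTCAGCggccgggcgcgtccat
Of these 5 genes, Nfe2l2, Gclm and Osgin1 were lower in fasted Lpin1-/- liver, and Txnrd1 and Srxn1 did not pass there. Keap1 and Cat, which were lower in fasted Lpin1-/- liver, had neither match in this window, and neither had Gpx1. Srxn1 held 2 further matches, TGAGNNNGC on the opposite strand 158 bases before the start and TGACNNNGC on the opposite strand 29 bases after it.

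The partners and neighbours of NRF2 were read from lists written for this description, whose counts stand against 13.2% of all genes lower and 5.63% higher in fasted Lpin1-/- liver (18.8% in all). Of 11 regulators (such as Cul3, Sqstm1, Bach1 and the small MAF genes), 3 differed in fasted liver (27.3%), where Maff and Mafk, both MAF partners of NRF2, were higher and Btrc, a ubiquitin ligase adaptor, was lower. Maff was at 0.959 to 1.12 RPKM in fasted Lpin1+/+ and 4.27 to 38.9 RPKM in fasted Lpin1-/- liver (log2 fold change 2.37, SE 0.63, adjusted p = 0.0230). Mafk was at 2.52 to 6.25 and 10.8 to 12.5 RPKM (1.40, SE 0.31, adjusted p = 0.0104). Both fell again in refed Lpin1-/- liver, by 2.08 and 1.07 on the log2 scale (adjusted p = 0.0371 and 0.0321). These 2 genes thus moved opposite to Nfe2l2 in Lpin1-/- liver. Mafg, another small MAF gene of the list, did not rise with them and was not called in either genotype contrast. It was at 18.1 to 27.3 RPKM in fasted Lpin1+/+ and 9.94 to 22.4 RPKM in fasted Lpin1-/- liver. After refeeding it was at 31.0 to 35.0 RPKM in Lpin1+/+ and 12.9 to 22.4 RPKM in Lpin1-/- liver.

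Among 29 tested genes for conjugation, NADPH supply and export that NRF2 is known to induce in other settings, 4 were lower and 0 higher in fasted Lpin1-/- liver (Gstm4, Aox1, Entpd5 and Slc48a1), or 13.8% called, not above the 18.8% of all genes. Gstm4, a glutathione transferase, fell from 37.0 to 58.1 RPKM in fasted Lpin1+/+ to 10.9 to 14.3 RPKM in fasted Lpin1-/- liver (−1.85, SE 0.22, adjusted p = 0.000519) and was also lower in refed liver (−1.98, adjusted p = 0.00109). Aox1, an aldehyde oxidase, was lower in both states (−1.35 and −1.73, adjusted p = 0.0104 and 0.00813). Between the genotypes in refed liver, 4 of the 29 genes were called (13.8%), 3 lower and 1 higher, where 6.67% of all genes were called. The higher gene was Cbr1, a carbonyl reductase, at 228 to 279 RPKM in refed Lpin1-/- against 66.4 to 106 RPKM in refed Lpin1+/+ liver (1.61, SE 0.27, adjusted p = 0.00732). Nqo1, a gene often read as a marker of NRF2 activity, was at 5.06 to 7.22 RPKM in fasted Lpin1+/+ and 2.36 to 6.09 RPKM in fasted Lpin1-/- liver, and was not called. 

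In the glutathione system, 3 of 17 tested genes were lower and 1 higher in fasted Lpin1-/- liver, or 23.5% called, against 18.8% of all genes. Chac2, which degrades glutathione, fell from 29.5 to 49.97 RPKM to 5.37 to 7.62 RPKM (−2.47, SE 0.29, adjusted p = 0.000519), and Gpx3, the plasma glutathione peroxidase, was higher (1.9997, SE 0.52, adjusted p = 0.0217). Oplah and Gsr, the glutathione reductase, were the other lower genes. Of 15 thioredoxin, peroxiredoxin and methionine sulfoxide reductase genes 3 were lower and 1 higher. That gene was Txnip, the thioredoxin inhibitor, which rose from 18.1 to 28.7 RPKM to 181 to 418 RPKM (3.29, SE 0.36, adjusted p = 0.000358). Txnrd2, the mitochondrial counterpart of Txnrd1, was lower (−0.96, SE 0.22, adjusted p = 0.0121). Of 4 superoxide dismutase genes only Ccs, the copper chaperone, was lower (−0.96, SE 0.24, adjusted p = 0.0169).

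Peroxisomal oxidases, which make the hydrogen peroxide that catalase removes, were lower in 3 of 8 cases in fasted Lpin1-/- liver, where 13.2% of all genes were lower. They were Ddo (−1.47, SE 0.26, adjusted p = 0.00372), Acox2 (−1.21, SE 0.29, adjusted p = 0.0157) and Pipox. In the haem list 3 of 11 genes were lower, namely Cpox, Alad and Fech (Cpox −1.78, SE 0.35, adjusted p = 0.00609), and Alas1, the first enzyme of haem synthesis, was higher (1.82, SE 0.53, adjusted p = 0.0345). Genes for selenium supply and selenoprotein synthesis, on which Gpx1 and Txnrd1 depend, were lower in 3 of 8 cases in fasted Lpin1-/- liver and higher in 4 of 8 after refeeding of Lpin1-/- mice, where 17.8% of all genes were higher. Scly, selenocysteine lyase, was lower by −1.59 (SE 0.21, adjusted p = 0.000836) in the first contrast and higher by 1.07 (SE 0.21, adjusted p = 0.00607) in the second. By limma 0 of the 103 tested genes of the 8 lists were called in the refeeding of Lpin1+/+ liver, where 1.72% of all genes were, and 4 had an unadjusted p under 0.05.

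**Figure D5:**
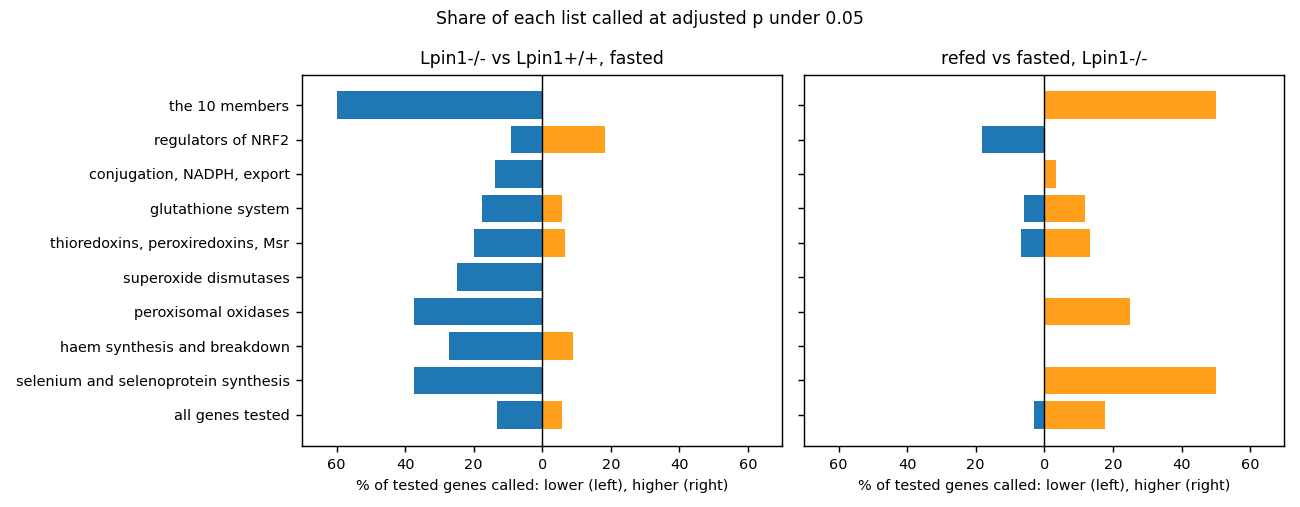
Share of the tested genes of each list (y axis) called lower (left) or higher (right) at an adjusted p of 0.05, in fasted Lpin1-/- against Lpin1+/+ liver and in refed against fasted Lpin1-/- liver, with all 11507 tested genes in the bottom row. In the fasted genotype contrast 60% of the 10 members were called lower, against 13.2% of all genes. Members and lists were chosen with earlier results of these data known.

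The members were compared with all tested genes by the root mean square difference of their log2(RPKM + 1) profiles over the 12 libraries, each less its own mean. Nmrk1 (0.32) and Vwce (0.37) were closest to Nfe2l2, Pigq (0.14) and Mmachc (0.14) to Keap1, and Ppp2r5a (0.22) and Sh3bgrl2 (0.24) to Gclc. Rbbp9 (0.11) and Zdhhc6 (0.13) were closest to Gclm, and Pknox1 (0.20) and Ikbkg (0.20) to Txnrd1. For Srxn1 the closest genes were Bak1 (0.19) and Kifc3 (0.20), for Hmox1 Syt12 (0.50) and Dhrs9 (0.50), for Osgin1 Nsmf (0.36) and Plpp5 (0.40), and for Gpx1 Nenf (0.20) and Immp2l (0.21). For each of these 9 members both genes were nearer than the closest other member. The search covered far more genes than members, which by itself favours a nearer gene outside the members. How alike the members are can therefore not be read from this order. Gclc lay nearest to Gclm among the members (0.33), and Keap1 and Txnrd1 lay nearest to each other (0.29). Gpx1 was farthest from the rest, at 1.05 from its nearest member Srxn1, beyond its median distance of 0.99 from all genes.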

How the data were processed

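Total RNA was isolated from snap-frozen liver, and stranded libraries were sequenced as 69 bp read pairs, per the labels. The authors aligned reads to GRCm38 (Ensembl release 84 annotation) with HISAT2 2.0.5, counted them per gene with HTSeq 0.6.0, and deposited RPKM, with no counts, so depth per gene is unknown. DESeq2 1.20.0 is also named in the submitters' processing notes. For splicing, the authors deposited rMATS inclusion and skipping counts of skipped exon events with the lengths of both forms. The p-values and FDR in those tables are the authors' own and were not used. Which list is Lpin1+/+ was set by a further table that compares the 2 feeding states in Lpin1+/+ mice, whose counts were identical at 1524 of 1524 shared events in fasted and 1719 of 1719 in refed liver. Skipping counts summed over distinct junctions to between 10415991 and 15159918 per library. The other tables of splicing subsets were not used here.

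The 11507 of 22456 genes whose mean RPKM reached 0.5 were fitted as log2(RPKM + 1) with limma 3.58.1 in R 4.3.3 (4 group means, trend in the variance), and p-values were adjusted by Benjamini-Hochberg over all genes, with a threshold of 0.05. Events for which each library had 10 counts or more and pairs of junctions sharing an end with at least 10 counts were fitted as log2 ratios after adding 0.5, adjusted over all events or pairs. The methods were tested on simulated data. Named besides the members are the 2 genes most like each (not reported here for Cat), up to 2 called genes per list and contrast, and the called events (5 at most per gene) and the event with most counts of the rarer form per gene. Genes named beyond these to complete a count of 5 or fewer, Nqo1, the refed value of Cbr1 and the junction pairs were chosen after their values were seen. The members and lists were chosen with earlier results of these data known. Gene models are from GENCODE M21, promoters from RefSeq. Same-numbered libraries had positively correlated deviations in all 3 pairs in the refed genotype contrast only (r 0.162 to 0.297). In the other contrasts these correlations ran from −0.474 to 0.251. No label pairs the mice by number, and libraries of unlike number were not compared, so a pairing is not shown. The fits were repeated with 0.1 added to RPKM, without the filter, with the filter at 5 RPKM, after rescaling, with a replicate block, on the 6 libraries of a contrast alone, and without each library in turn. The 3 mice of a group are separate animals. Figures were drawn with matplotlib 3.10.9 in Python 3.11.15.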

Additional observations from a re-analysis of the deposited data

How the results depend on the processing

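Of 89 alternative counts of called members, 88 stayed within 1.5 times the reported count, and the exception was the refed genotype contrast, where leaving out 1 library gave between 0 and 2. With each library left out, called members numbered between 4 and 6 in the fasted genotype contrast and between 4 and 7 in Lpin1-/- refeeding. Of 890 alternative values of single genes, 840 kept their direction and side of the threshold, 21 lost a call, 10 gained one and 19 changed sign, all of the last in genes that were not called. Rescaling each library moved the median of all genes from 0.19 to 0.02 in Lpin1+/+ refeeding, from 0.25 to −0.03 in Lpin1-/- refeeding and from −0.14 to 0.01 in the fasted genotype contrast. It turned the sign of Hmox1 (−0.0571) and Gpx1 (−0.0942) in Lpin1+/+ refeeding and of Cat (−0.22) in Lpin1-/- refeeding. With libraries left out, values that changed sign ranged from −0.41 to 0.0921 for Gclc, −0.63 to 0.77 for Hmox1 and −0.35 to 0.48 for Gpx1 in Lpin1+/+ refeeding. They ranged from −0.0763 to 0.35 for Cat in Lpin1-/- refeeding, from −0.16 to 0.14 for Srxn1, −0.14 to 0.57 for Hmox1 and −0.31 to 0.55 for Gpx1 in the fasted genotype contrast, from −0.17 to 0.0142 for Keap1 and −0.49 to 0.18 for Srxn1 in the refed genotype contrast, and from −0.49 to 0.18 for Srxn1 in the interaction. The causes were not tested.

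With the replicate number as a block, 4 members were called in Lpin1-/- refeeding, 6 in the fasted genotype contrast, and 0 in the other 3 tests, and Gclc in Lpin1-/- refeeding was the only member call that changed. Among all genes the block left 93 called in Lpin1+/+ refeeding against 198, and 81 in the interaction against 147. Correlations of same-numbered libraries were under 0 in every pair of the Lpin1-/- refeeding and fasted genotype contrasts, so they gave no sign of a pairing by number there. Only the 6 libraries compared gave 0 called genes in Lpin1+/+ refeeding and 1011 against 2168 in the fasted genotype contrast.

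Called exon events of the members in fasted liver numbered 21 with 1 added to each count and between 4 and 13 with each library left out (5 without fasted Lpin1+/+ list position 3). In refed liver they numbered 1 with at least 20 counts per event and 2 with 1 added to each count. Many of these events have a form at 0 reads in 1 genotype, and their ratios depend on the count added. The Nfe2l2 junction ratio kept its calls under the 14 alternatives run, which were chosen after seeing the data. RPKM carries no depth, so counting error was not modelled separately. It enters the gene-level errors only as part of the spread between libraries.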
